A study of Homo sapiens with 6 samples.

Results

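A set of 10 genes that mark the luminal lineage of the mammary gland were followed in 76N, an epithelial line from normal human breast, given a control siRNA or an siRNA against Ecd. The genes are those of the transcription factors GATA3, FOXA1, ESR1, ELF3 and ELF5, the surface proteins CD24, EPCAM and PROM1, the secretory pathway protein AGR2 and the enzyme ALDH1A3. Every probe set whose only gene symbol in the platform annotation is one of these 10 names was taken, without regard to its values, which gave 31 of the 54675 probe sets on the array. The 10 genes and the lists of other genes below were themselves chosen with earlier results of these data known. The shares of them that passed are therefore only described. The cells were grown in DFCI-1 medium, and RNA from 3 cultures with control siRNA and 3 with Ecd siRNA was hybridised to 1 Affymetrix array each. The labels call the cultures of a group biological replicates. All 6 cultures had an siRNA transfection. They share 1 cell line, so differences between donors are outside the design.

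The milk ducts and alveoli are lined by an inner luminal layer and an outer basal layer. Luminal cells comprise hormone-sensing cells, which carry the oestrogen receptor, and progenitor and milk-secreting cells, which largely lack it. GATA3 and FOXA1 act with the oestrogen receptor in the first kind, ELF5 drives the alveolar fate of the second, and surface levels of EPCAM and CD24 are used to sort luminal cells. Ecd, encoded by ECD, is related to Drosophila ecdysoneless and has known roles in the cell cycle.

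The deposited values are signals on a linear scale, with 1 value per probe set and array. A probe set was tested where its mean signal over the 6 arrays was at least 90.2, the level that the upper 60% of all probe sets reach. Changes are given as log2(signal + 16) in Ecd siRNA minus control siRNA cultures, which understates changes of dim transcripts. A gene was read by its brightest probe set and is said to have risen or fallen where limma's adjusted p over all genes tested was under 0.05. Of the 10 genes, 9 could be tested, and of the 31 probe sets, 21. Signals of different genes depend on their probes and are not compared with each other.

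The targeted transcript was lower with Ecd siRNA. ECD itself read 1007.2 to 1076.6 on control arrays and 542.5 to 599.8 after Ecd siRNA. Median signals were 128.7 to 147.6 per array. The ratio of 3′ to 5′ signal, a sign of RNA quality, was 0.974 to 1.003 for GAPDH and 1.07 to 1.16 for ACTB. The 4 epithelial check genes were bright in both groups. The basal keratin genes were at mean signals of 16435 and 16024 (KRT5) and 21386 and 22350 (KRT14) in control and Ecd siRNA arrays. KRT18 was at 5702 and 3977, and E-cadherin, CDH1, at 10057 and 11932. Not all epithelial genes listed below were bright, as KRT19 (mean signal 29.8) and CLDN3 (22.5) were under the filter. Of 6 endothelial markers, PECAM1 (mean signal 442.9), TEK (291.7) and CLDN5 (117.1) were above the filter and CDH5, KDR and VWF under it. The control mean of CLDN5, 89.8, is under the filter signal, so it was tested only because of the Ecd siRNA arrays (mean 144.5). Of 4 immune cell markers with a probe set, LYZ (105.2) was above the filter and PTPRC, CD3E and CD14 were under it. CD14, not tested, was at 92 to 140.6 in control and 18.3 to 78 in Ecd siRNA arrays.

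Among the luminal genes PROM1, AGR2, GATA3 and CD24 rose after Ecd siRNA and ALDH1A3 fell. PROM1 reached 217% and AGR2 201% of its mean control signal, GATA3 and CD24 rose by smaller amounts, and ALDH1A3 was left with 55.1% of its control signal. FOXA1, ESR1, ELF3 and EPCAM did not pass the threshold, and ELF5 was too dim to be tested. Of the 9 tested genes 5 thus passed, 4 upwards and 1 downwards. Of all 14614 genes tested, 21.2% passed, 10.1% upwards and 11% downwards. The median log2 change of the 9 was 0.39, beside 0.01 for all genes tested. That middle value is the change of ESR1, which did not pass the threshold and was -0.03 without control replicate 3. The 3 arrays of 1 group all lay above those of the other in 6 of the 9 genes (66.7%), beside 36.5% of all genes tested.

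**Figure D1:**
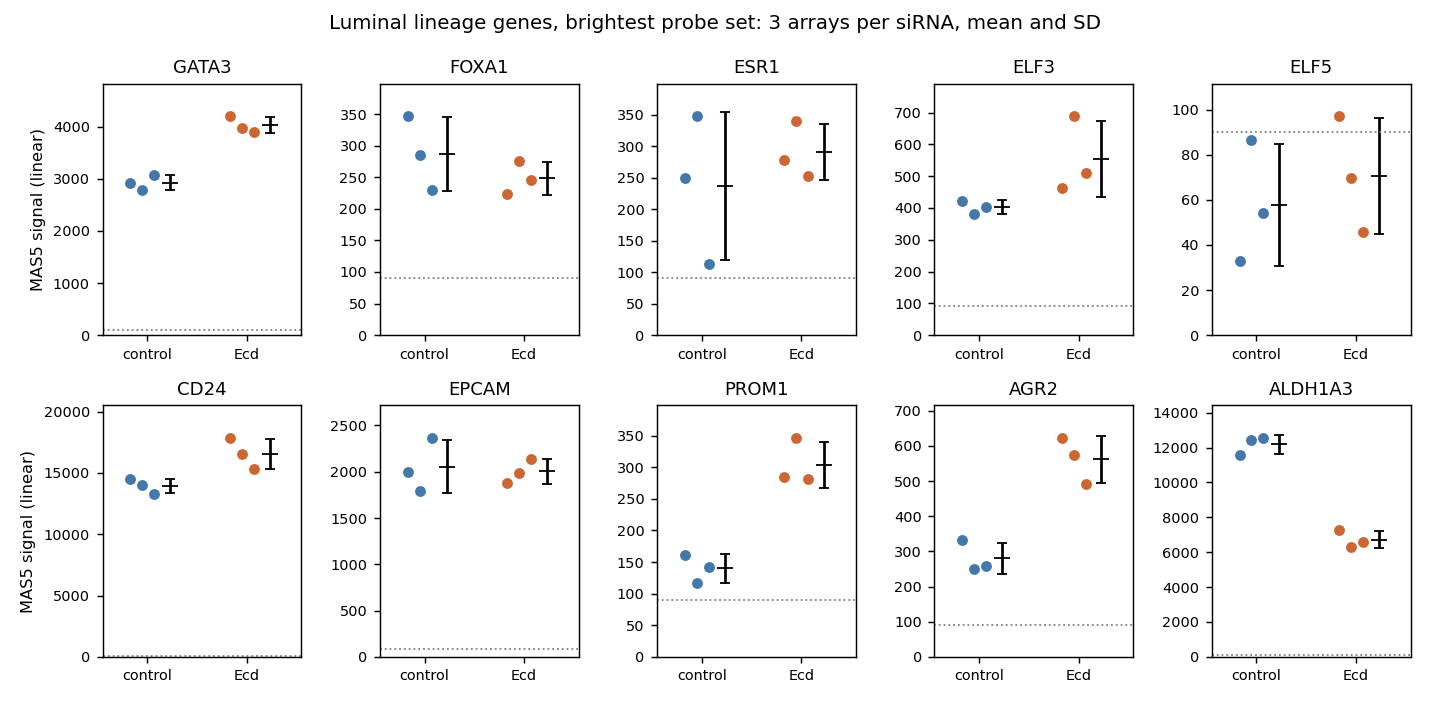
Signal (linear MAS5 units, each panel with its own axis from 0) of the brightest probe set of each of the 10 genes in the 3 control and 3 Ecd siRNA arrays, with the mean and SD beside the points. The dotted line is the filter signal of 90.2. The groups are apart for GATA3, ELF3, CD24, PROM1, AGR2 and ALDH1A3, and ELF5 straddles the filter line.

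PROM1 encodes prominin-1 (CD133), a glycoprotein of membrane protrusions that is found on the apical face of luminal cells. AGR2 encodes a protein of the disulphide isomerase family that acts in the endoplasmic reticulum in the folding of secreted proteins such as mucins. ALDH1A3 encodes a retinaldehyde dehydrogenase that makes retinoic acid, and its activity marks luminal progenitor cells. Read by their brightest probe sets, these 3 genes had the largest changes of the set, 2 upwards and 1 downwards, and the 250 bases before their start sites are shown to compare their promoters, 5′ to 3′ on the gene's own strand from RefSeq (GRCh38.p14), with CG dinucleotides in capitals. For PROM1 the most upstream of the 4 listed starts is given.
AGR2, chr7:16805000-16805249, minus strand: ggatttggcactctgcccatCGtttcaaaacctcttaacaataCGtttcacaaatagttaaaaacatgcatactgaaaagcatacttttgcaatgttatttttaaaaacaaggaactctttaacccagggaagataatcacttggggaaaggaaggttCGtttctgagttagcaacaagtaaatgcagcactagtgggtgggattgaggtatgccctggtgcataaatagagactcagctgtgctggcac
PROM1, chr4:16084024-16084273, minus strand: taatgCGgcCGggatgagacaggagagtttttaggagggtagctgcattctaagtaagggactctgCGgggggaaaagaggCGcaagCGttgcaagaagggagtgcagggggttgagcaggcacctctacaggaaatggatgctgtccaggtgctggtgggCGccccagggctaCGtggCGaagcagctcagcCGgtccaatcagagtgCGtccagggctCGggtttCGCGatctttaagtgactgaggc
ALDH1A3, chr15:100879581-100879830, plus strand: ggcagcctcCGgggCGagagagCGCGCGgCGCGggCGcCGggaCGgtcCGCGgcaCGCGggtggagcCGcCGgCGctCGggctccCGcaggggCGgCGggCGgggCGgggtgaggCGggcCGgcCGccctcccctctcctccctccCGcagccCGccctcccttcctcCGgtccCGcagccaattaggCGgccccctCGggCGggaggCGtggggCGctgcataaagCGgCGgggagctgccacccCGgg
The ALDH1A3 window held 38 CG dinucleotides and was 82.4% G and C, that of PROM1 held 13 at 58.8%, and that of AGR2 held 3 at 40.4%. The other 3 PROM1 windows held 26, 17 and 5 CG dinucleotides at 68%, 68.8% and 56.8%. Over 35116 promoter windows of the same length in the table the medians were 11 CG dinucleotides and 58% G and C. The AGR2 window lay below both medians and that of ALDH1A3 above both, while PROM1 depends on which start is read, and the files do not say which start the cells used.

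Promoters were listed for 9 of the 10 genes, in 24 windows, and EPCAM had none listed. They were searched for GATA sites (AGATAA or TGATAA), grainyhead sites (AACCNGTT) and forkhead sites (TGTTTAC or TGTTTGC) on both strands, and for a TATA box (TATAAA) on the gene's strand. A GATA site was found in the AGR2 window alone of the 24, starting 119 bases before the start site, and 14.6% of all windows hold one. Forkhead sites were found in 1 window each of GATA3, FOXA1 and ELF5 (6.09% of all windows), and a TATA box in that of ELF3, 34 bases before the start (6.8%). No window of the set held a grainyhead site (1.49%). A match says only that these letters occur in the window.

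PROM1 read 161.5, 116.8 and 141.8 with control siRNA against 283.9, 346 and 280.7 with Ecd siRNA. Every Ecd siRNA array lay above every control array, and the group means were 140 ± 22.4 and 303.5 ± 36.8 (SD, n = 3 each), a 2.17-fold ratio. On the log2 scale this is a change of 1.04 (SE 0.19, limma adjusted p = 0.00301), rank 528 of 14614 by size. PROM1 is read by 1 probe set, with an _s_at name, and its low control signals make the size depend on the pseudocount, at 1.12 with 1 and 0.85 with 64.

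AGR2 read 331.4, 250.1 and 259 with control siRNA and 622.2, 573.1 and 491.2 with Ecd siRNA. The groups were again wholly apart, with means of 280.2 ± 44.6 and 562.2 ± 66.2 (SD, n = 3 each), a 2.01-fold ratio. The change was 0.97 (log2, SE 0.15, limma adjusted p = 0.00114), rank 612 by size. Its second probe set was under the filter, with signals of 23.9 to 83 in control and 63 to 111.1 in Ecd siRNA arrays that overlapped.

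ALDH1A3 went the other way. Control cultures gave signals of 11581, 12421.3 and 12541.2, and Ecd siRNA cultures gave 7264.2, 6305.4 and 6563.9. The lowest control array was well above the highest Ecd siRNA array, and the means were 12181 ± 523.2 and 6711 ± 496.1 (SD, n = 3 each). The log2 change of -0.86 (SE 0.07, limma adjusted p = 1.48e-05) ranked 801 by size and had the smallest adjusted p among the 9 genes. A second probe set was under the filter at 38.4 to 88.3 in control and 43.1 to 84.8 in Ecd siRNA arrays, and averaging this dim probe set with the bright one gave -0.41 (adjusted p = 0.115). In cultures measured in bulk, fewer cells of a type and less RNA per cell cannot be told apart.

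GATA3, the zinc finger factor that luminal cells need to form and stay differentiated, rose by less. Its brightest probe set was at 2918.5, 2787.5 and 3077.1 in control and 4198.3, 3984.5 and 3901.3 in Ecd siRNA arrays. The 3 Ecd siRNA arrays were all higher, with means of 2928 ± 145 and 4028 ± 153.2 (SD, n = 3 each) and a log2 change of 0.46 (SE 0.07, limma adjusted p = 0.00109). A second probe set gave the same size of change, from 549.4, 521.9 and 619.5 to 668.1, 795.7 and 899.2 (log2 change 0.46, adjusted p = 0.0371 over all probe sets tested). That call was lost on dropping any of control replicates 1 and 2 and Ecd siRNA replicates 2 and 3 (adjusted p of 0.101 to 0.122), with a common median (0.0863), without the filter (0.0584) and without the intensity trend (0.0832). The remaining probe set, 209603_at, is the only 1 of the 3 whose name carries no _s, and its groups overlapped at 253.7 to 298.1 and 297.3 to 368 (0.29, adjusted p = 0.222). All 3 pointed upwards. The probe sets read 1 transcript from the same 6 RNAs and are not replicates of each other.

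FOXA1, the pioneer factor that opens chromatin for the oestrogen receptor, had signals of 346.4, 286.1 and 229.3 in control and 223.4, 275.9 and 245 in Ecd siRNA arrays. The groups overlapped, and the log2 change was -0.19 with a 95% interval of -0.59 to 0.22 (limma adjusted p = 0.543). Its other probe set was under the filter at 40.5 to 79.8 over the 6 arrays.

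ESR1, the oestrogen receptor alpha gene, was dim in all of its 9 probe sets, with 5 under the filter and no signal above 347.2. The brightest, 217190_x_at, was at 250.1, 347.2 and 112.8 in control and 278.6, 340.3 and 252.8 in Ecd siRNA arrays. Control replicate 3 stood below the other 5 arrays, and the log2 change of 0.39 had a 95% interval of -0.32 to 1.11 (limma adjusted p = 0.457). Without control replicate 3 it was -0.03. Another probe set, 211233_x_at, passed among all probe sets at 1.25 (SE 0.37, adjusted p = 0.0472), from 113.1, 65.8 and 53.4 to 118.8, 325.7 and 196.1. Its control mean of 77.4 is under the filter signal, so it was tested only because of the Ecd siRNA arrays (mean 213.5), and the call was lost on dropping any of control replicates 2 and 3 and Ecd siRNA replicates 2 and 3 (adjusted p of at most 0.178). The remaining tested probe sets, 215551_at and 205225_at, pointed in opposite directions at 0.28 (adjusted p = 0.445) and -0.19 (adjusted p = 0.643). 

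ELF3 encodes an ETS factor of epithelia, and its brightest probe set did not pass although the groups were apart. Signals were 423.2, 381.9 and 403.8 in control and 461.7, 688 and 510.9 in Ecd siRNA arrays, a log2 change of 0.42 with a 95% interval of 0.09 to 0.76 (limma adjusted p = 0.0753). Ecd siRNA replicate 1 lay closest to the controls, and without it the change was 0.54 and passed (adjusted p = 0.0379). Without Ecd siRNA replicate 2, the highest of the 6, it was 0.26 (adjusted p = 0.241). The other 2 probe sets gave 0.26 (adjusted p = 0.327) and 0.05 (adjusted p = 0.905).

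ELF5, the ETS factor of alveolar progenitors, stayed at the bottom of the range. Its brighter probe set was at 32.8, 86.5 and 54 in control and 97, 69.7 and 45.6 in Ecd siRNA arrays, and the other at 28.2, 44.1 and 92.4 against 41.1, 22.3 and 30.5. The groups overlapped in both, and no change of ELF5 was detectable at these signals.

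CD24 encodes a small mucin-like glycoprotein anchored to the cell surface by a lipid. It has 6 probe sets, all bright, and in each of the 6 every Ecd siRNA array lay above every control array. The groups were apart, in either direction, in 33.7% of all probe sets tested. The brightest was at 14505.2, 13974 and 13304.6 in control and 17826.7, 16498.6 and 15332.6 in Ecd siRNA arrays, with means of 13928 ± 601.6 and 16553 ± 1248 (SD, n = 3 each). This log2 change of 0.25 (SE 0.07) passed with a limma adjusted p of 0.026. The dimmest of the 6, 209772_s_at, moved most, from 4962.8, 4294.7 and 3884.2 to 5542.2, 5823.2 and 5979.3 (0.41, adjusted p = 0.013). Over the 6 the changes ran from 0.25 to 0.41, 5 passed among all probe sets, and 208651_x_at did not (adjusted p = 0.0619, and 0.0253 with the replicate block). The call of 209772_s_at held on leaving out each array in turn but not without the intensity trend (0.0778), while 209771_x_at, 208650_s_at and 266_s_at each lost theirs without control replicate 1 (0.0744 to 0.175) and under other settings.

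The CD24 call is near the threshold. It was lost on dropping any control array, or Ecd siRNA replicate 1 or 2. In these cases the adjusted p was 0.0512 to 0.0859 with changes of 0.19 to 0.28, and also with a common median, without the filter and without the intensity trend. CD24 has processed copies elsewhere in the genome, all 6 probe sets have _s_at or _x_at names that allow more than 1 target, and they cannot be taken as 6 separate measurements.

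EPCAM, the epithelial adhesion molecule, was the member that moved least. Signals were 2001.4, 1794.8 and 2362.9 in control and 1877.4, 1991.7 and 2143.1 in Ecd siRNA arrays, which interleave. The log2 change was -0.03 with a 95% interval of -0.26 to 0.21 (limma adjusted p = 0.897).

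**Figure D2:**
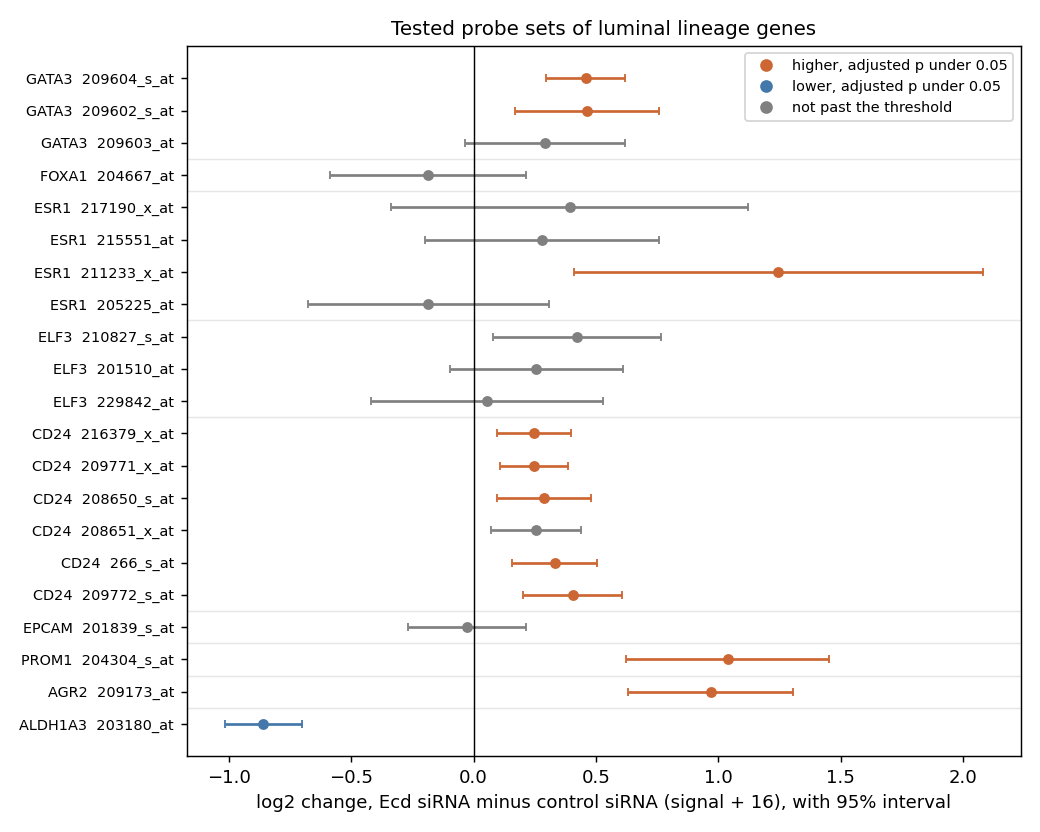
Log2 change (Ecd siRNA minus control siRNA, signal + 16) with its 95% interval from limma for each of the 21 tested probe sets, grouped by gene, with those past the adjusted p threshold in colour. The 6 CD24 probe sets lie between 0.25 and 0.41, the 4 of ESR1 spread from -0.19 to 1.25 with wide intervals, and ALDH1A3 at -0.86 is the only 1 that fell.

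By probe set, 10 of the 21 tested were higher and 1 lower, while over all 27030 probe sets tested 17% passed, 8.36% upwards and 8.68% downwards. Of the 10 higher ones, 5 were those of CD24. The rest were 2 of GATA3 and 1 each of PROM1, AGR2 and ESR1. The count of 11 fell to 6 without control replicate 1 and to 7 without control replicate 2, control replicate 3 or Ecd siRNA replicate 2. All probe sets past the threshold fell too, from 4607 to 3019 without control replicate 1, and in the other cases to 3420, 3721 and 3385. Leaving aside the ESR1 probe set, whose control mean is under the filter, 9 of 20 were higher and 1 lower.

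**Figure D3:**
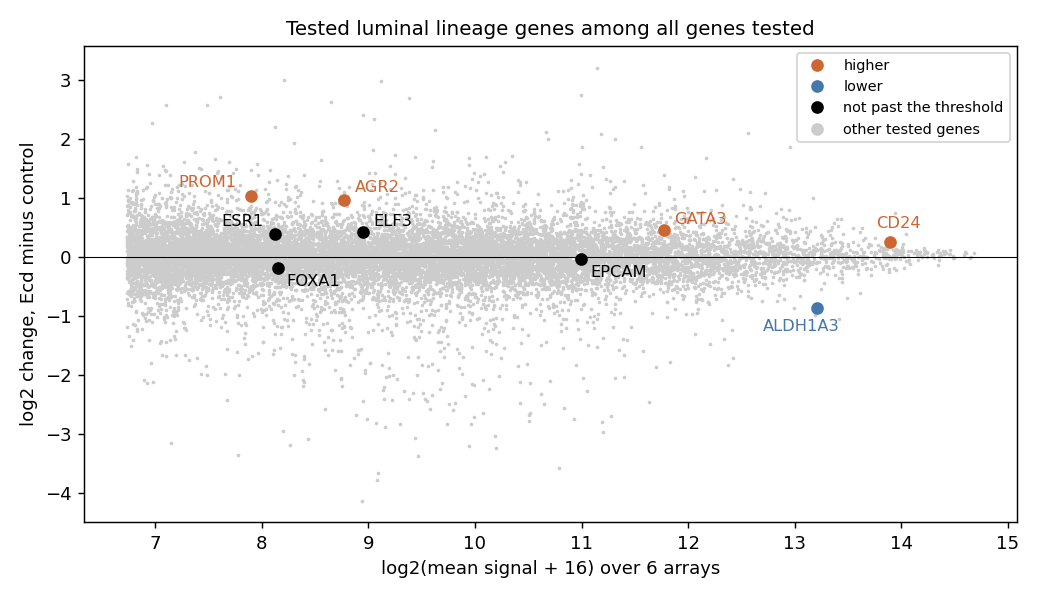
Log2 change against log2(mean signal + 16) over the 6 arrays for all 14614 genes tested (grey) and the 9 tested luminal genes (named, coloured where past the threshold). PROM1 (1.04) and AGR2 (0.97) lie highest and ALDH1A3 (-0.86) lowest of the 9, GATA3 (0.46) lies between, and EPCAM (-0.03) lies on the zero line.

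For each gene past the threshold, the tested genes with the most similar profile over the 6 arrays were found by the Euclidean distance between mean-centred log2 values among 14613 others. GRHL1, which encodes a grainyhead factor of epithelia, was among the 3 nearest to both PROM1 (distance 0.23, first) and AGR2 (0.20, second). RAB9B was nearest to AGR2 (0.10), RBM4 and POFUT4 followed GRHL1 for PROM1, and PALMD followed GRHL1 for AGR2. Nearest to ALDH1A3 were GGH, BRIP1 and CTPS1 (0.12 to 0.13), to GATA3 LOXL2, MXRA7 and LINC00623 (0.06 to 0.07), and to CD24 RAB5B, TMEM50A and ITGB4 (0.05 to 0.07). With 6 arrays in 2 groups, such a distance mostly reflects a like difference between the groups.

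Other genes of the luminal lineage came from 3 lists of 46 names in all, of which 31 were tested. Of these, 6 rose and 3 fell, 22 missed the threshold, and there was a median log2 change of 0.08. The 9 that passed are 29.0% of the 31, beside 21.2% of all genes tested. Those that moved went both ways in 2 of the 3 lists.

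Among keratins, junction genes and epithelial regulators, 3 of 13 rose and 1 fell, beside 10.1% and 11% of all genes tested, with a median of 0.10. GRHL1 rose from 492.1, 413.2 and 438.7 to 909.4, 933.2 and 837.5 (0.97, limma adjusted p = 0.000141). RAB25, a small GTPase of epithelial membrane recycling, rose by 0.34 (adjusted p = 0.00656) and CDH1 by 0.25 (adjusted p = 0.00914). Both calls were lost with a common median (adjusted p = 0.0831 and 0.118). The CDH1 call was also lost without control replicate 1 (adjusted p = 0.0506), with no trend on intensity (0.0814), and when its probe sets were averaged (0.38, adjusted p = 0.0594). KRT18, a keratin of simple epithelia, fell from 5674.9, 5532.1 and 5897.5 to 4560.7, 3712.1 and 3658 (-0.52, adjusted p = 0.00197). Its filament partner KRT8 was at 0.08 (adjusted p = 0.651), and in KRT7 the groups were apart at -0.25 but the test was not passed (adjusted p = 0.134). The probe sets that read KRT18 and KRT8 have _x_at names, which allow more than 1 target.

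In the list of progenitor and milk secretion genes, 2 of 8 rose (10.1% of all genes) and 0 fell (11%), and the median was 0.13. At an unadjusted p under 0.05 in limma 0 were lower as well, beside 2405 of all 14614 genes tested. SLPI, a secreted protease inhibitor, rose by 0.64 (adjusted p = 7.37e-05), and KRT15, a keratin of stratified as well as glandular epithelia, by 0.30 (adjusted p = 0.012). The KRT15 call was lost without control replicate 1 (adjusted p = 0.0662), with a common median (0.0631) and without the intensity trend (0.084). The casein gene CSN2 was at 0.04 and did not pass (limma adjusted p = 0.955). KIT, LTF, LALBA and CSN3 lay under the filter, as ELF5 did. KIT was at 6.3 to 13.9 in control and 18.6 to 25.1 in Ecd siRNA arrays, at the bottom of the range, and was not tested. The groups overlapped in LTF, LALBA and CSN3.

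Hormone-sensing genes and oestrogen receptor targets rose in 1 of 10 tested and fell in 2 (10.1% and 11% of all genes), while 7 missed the threshold, and the median was -0.09. At an unadjusted p under 0.05 in limma 3 were higher and 2 lower, beside 2330 and 2405 of all 14614 genes tested. CA12, a carbonic anhydrase gene, rose by 0.41 (adjusted p = 0.00166). The cyclin D1 gene CCND1 changed by -0.38 (adjusted p = 0.00398) and XBP1, a factor of secretory cells, by -0.27 (adjusted p = 0.035). As the mean of their probe sets both calls were lost, at -0.17 (adjusted p = 0.341) and -0.06 (adjusted p = 0.79), and XBP1 was also not past it on dropping control replicate 1 or 3, or either of Ecd siRNA replicates 1 and 2 (adjusted p at most 0.122), with a common median (0.171) or without the intensity trend (0.0926). PGR, the progesterone receptor gene, TFF3 and ANKRD30A lay under the filter.

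**Figure D4:**
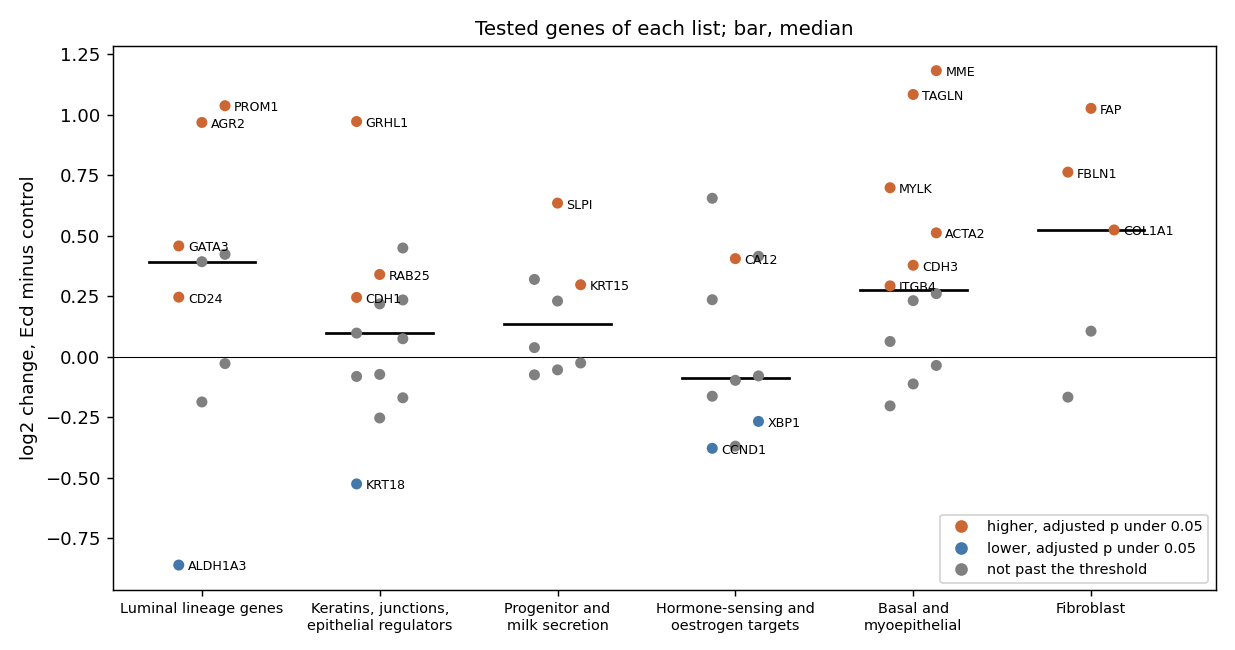
Log2 change (Ecd siRNA minus control siRNA) of the tested genes of 6 lists, 1 point per gene, with genes past the adjusted p threshold coloured and named and a bar at each list's median. The medians run from -0.09 in hormone-sensing genes to 0.52 in fibroblast markers. The luminal lineage genes, at a median of 0.39 (the value of ESR1, not past the threshold), hold 4 rises and the fall of ALDH1A3.

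Markers of other mammary cell types moved in the same comparison. Of 12 basal and myoepithelial markers tested, 6 rose and 0 fell, while 10.1% of all genes tested rose and 11% fell. At an unadjusted p under 0.05 in limma 7 were higher and 0 lower, beside 2330 and 2405 of all 14614 genes. The median was 0.28, beside 0.01 for all genes, and those with the smallest adjusted p were TAGLN (1.08), MME (1.18), MYLK (0.70) and ACTA2 (0.51). KRT5 (-0.04) and KRT14 (0.06) did not pass, and of the 12 changes 9 were above 0 and 3 below. TP63 and KRT17 had no probe set with a single gene symbol, and CNN1 was under the filter. TAGLN was at 0.51 in a probe set without _s or _x (adjusted p = 0.185), and the mean over all ACTA2 probe sets was 0.15 (adjusted p = 0.63). The signals of the basal markers summed to 87502 to 95343 in control and 102609 to 113701 in Ecd siRNA arrays. Those of the 10 luminal genes summed to 32446 to 32552 and 29767 to 33133, which overlap. Such sums weigh the brightest probe sets most and say nothing of one gene's level against another's.

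Of 5 fibroblast markers tested, 3 rose and 0 fell, beside the same 10.1% and 11%, and the median was 0.52. The counts were the same at an unadjusted p under 0.05 in limma, where 2330 of all 14614 genes were higher and 2405 lower. Those that rose were the protease gene FAP (1.03, adjusted p = 1.92e-05) and the matrix genes FBLN1 (0.76, adjusted p = 0.000818) and COL1A1 (0.52, adjusted p = 0.00973). COL1A1 was at 0.24 without Ecd siRNA replicate 1 (adjusted p = 0.408), and FBLN1 at 0.39 (adjusted p = 0.026). As the mean of their probe sets FBLN1 (0.32, adjusted p = 0.132) and COL1A1 (0.23, adjusted p = 0.26) did not pass. The 11 markers with a probe set summed to 5473 to 5784 in control and 9006 to 10425 in Ecd siRNA arrays, while PDGFRA, PDGFRB, COL3A1, LUM, POSTN and COL6A3 were under the filter. Of the 3 endothelial markers and the 1 immune marker tested, 0 passed in limma, and 0 had an unadjusted p under 0.05. With so few genes tested, these counts cannot be set against the shares of all genes. The sums of both lists overlapped, at 985.7 to 1072.5 and 914.9 to 1077.8 for the 6 endothelial markers and 272.3 to 399.7 and 168.1 to 321.5 for the 4 immune cell markers (control and Ecd siRNA). The part of these markers in the changes of the luminal genes was not tested.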

How the data were processed

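RNA of 6 cultures of 76N cells was measured on 6 Affymetrix arrays. The deposited table holds linear intensity values, which are MAS5 signals per the submitters' processing notes. For the MAS5 version and its target level, not given in the sources used here, no value is assumed. The mean between percentiles 2 and 98 was 499.6 to 499.8 on every array, so arrays were already scaled alike, which hides any change common to every transcript. No detection calls were used.

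Of 54675 probe sets, 41091 had 1 gene symbol in the GEO platform annotation, 1801 had several and 11721 other than the 62 Affymetrix controls had none. Values were fitted as log2(signal + 16) in limma 3.58.1 (R 4.3.3; lmFit, eBayes with intensity trend, no covariates) for 14614 genes by their brightest probe set, and separately for 27030 probe sets, with Benjamini-Hochberg adjustment over all features. On simulated data for this comparison (14614 genes, noise from limma's moderated SD of each gene), 81% of changes of 1 and 51% of changes of 0.5 on the log2 scale were recovered, with 7 of 139 calls false. Far fewer genes were changed in the simulation than passed in the data, so these shares do not give the recovery here. The number of arrays limits the precision, and p-values reflect how much these 6 cultures vary.

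The members and lists were chosen with earlier results of these data known. Named were ECD, every member, the up to 4 genes of a list that passed with the lowest adjusted p (where fewer than 2 passed, the 2 lowest p), 4 epithelial check genes, and the 3 nearest genes of each member past the threshold. KRT7, KRT8, CSN2, TEK and genes under the filter were named after their values were seen. TP63 and KRT17 were named as list genes that could not be read. Other settings were pseudocounts, scaling, filters, probe set choices, eBayes without trend, array weights, the replicate block and leaving out each array. Promoters come from RefSeq, GRCh38.p14, without the bases after the start. Scan dates were not used here.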

Additional observations from a re-analysis of the deposited data

How the results depend on the processing

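Member genes past the threshold numbered 4 or 5 of those tested under each of the 17 other settings, and all genes past it 2188 to 3307. The member calls were as follows. PROM1 and AGR2 kept their direction and their call in all of these settings. GATA3 lost its call in the probe set without _s or _x (0.29, adjusted p = 0.215), ALDH1A3 when its probe sets were averaged (-0.41, adjusted p = 0.115), and CD24 with a common median (adjusted p = 0.0882), with no filter (0.071), with no intensity trend (0.134) and without 5 of the 6 arrays in turn. Other luminal genes past the threshold numbered 5 of 31 with a common median, against 9, while all genes past it numbered 2212 of 14611, against 3092. Member probe sets past it numbered 6 of 21 with a common median, 6 of 31 without the filter and 4 of 21 without the intensity trend, against 11, and 6 to 12 on leaving out 1 array. All probe sets past it numbered 3256 of 27031 with a common median, 4000 of 41091 without the filter and 3124 of 27030 without the intensity trend. All probe sets past it numbered 3019 to 4009 on leaving out 1 array, the lowest without control replicate 1, against 4607. Directions that turned belonged to values not past the threshold. On leaving out 1 array, ESR1 ranged from -0.030 to 0.72, EPCAM from -0.12 to 0.078, KRT5 from -0.11 to 0.025 and the ELF3 probe set 229842_at from -0.039 to 0.12. The causes were not tested.

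Over 43 named genes and member probe sets, 627 of 701 values under other settings kept their direction and side of the threshold, 63 lost the call, 5 gained it and 6 turned. Replicate numbers were not taken to pair the arrays. Deviations from the group means of same-numbered arrays correlated at -0.0026, 0.084 and 0.16. Control replicates 2 and 3 correlated best with the Ecd siRNA array of their own number, and control replicate 1 with Ecd siRNA replicate 2 (0.054). With the replicate block 3276 genes passed, against 3092, with 5 member genes, 9 other luminal genes, 4656 probe sets and 11 member probe sets. The 11 are not the same ones, since ESR1 211233_x_at was lost (adjusted p = 0.0627) and CD24 208651_x_at gained (0.0253). Low signals limit ESR1, whose intervals are wide, and ELF5, which was not tested.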
